A study of Homo sapiens with 4 samples.

Results

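The 35 genes described here make, desaturate, elongate, activate, esterify and burn fatty acids. They were found by their symbols among the 17791 genes of the deposited count table, and all 35 passed the filter on low values that left 14856 genes. By role they fall into synthesis (6 genes), control (1), desaturation (4), elongation (6), activation (4), glycerolipid assembly (7) and beta-oxidation (7). From the gel with no added crosslinker to the one with the most, 2 of the 35 differed at least 2-fold, against 11.1% of all genes tested. The desaturase SCD was 2.07-fold higher, a call lost under scaling by total counts (log2 0.95), and the very long chain acyl-CoA dehydrogenase ACADVL, an enzyme of beta-oxidation, was 2.57-fold lower. Against a flat coculture of the same lines, 4 members differed that much in PF, 5 in PF+2%PEGDA and 8 in PF+3%PEGDA, against 28.5%, 21.9% and 22.5% of all genes.

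The study sequenced 4 groups, with 1 library each. Engineered prostate cancer tissues (EPCaTs) held PC-3 cells, an established line from a bone metastasis of prostate cancer, and BJ-5ta cells, foreskin fibroblasts immortalised with telomerase. They were embedded at 5 PC-3 to 1 BJ-5ta in a gel of poly(ethylene glycol) coupled to fibrinogen (PF). The first EPCaT group had this gel alone (PF EPCaT), and in the other two, PF+2%PEGDA EPCaT and PF+3%PEGDA EPCaT, poly(ethylene glycol) diacrylate (PEGDA), a crosslinker, was added in excess at 2% or 3% by weight per volume. All were collected on day 15 and had been kept in the medium of the PC-3 line. Each EPCaT library came from RNA of more than 2 tissues, and the 2D coculture library from cells grown flat. For the 2D coculture the labels give no day, no cell ratio and no medium of its own, so the gel, the culture time, the starting mix and the medium cannot be told apart in any comparison with it. Each cancer and fibroblast component is 1 cell line, and the labels name no treatment.

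Fatty acid synthesis starts from acetyl-CoA, which ACLY makes from citrate and ACSS2 from acetate. ACACA carboxylates it to malonyl-CoA, and FASN assembles palmitate from these units with NADPH, part of which comes from ME1. SCD places a double bond in saturated chains, FADS1 and FADS2 act on polyunsaturated chains, and ELOVL enzymes lengthen them. Acyl-CoA synthetases (ACSL) activate fatty acids either for storage or membrane lipid, through GPAM, AGPAT, LPIN and DGAT enzymes, or for oxidation. Malonyl-CoA blocks CPT1A, the gate through which long chains enter mitochondria, so synthesis and oxidation are usually set against each other. Prostate cancers are known for high expression of FASN and for reliance on lipid synthesis.

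Levels are in CPM, that is counts per 1000000 counts after scaling. Ratios are given as log2 values or folds, and values in parentheses after them are 95% intervals that cover counting error only. Since each group had a single library, groups could not be tested against each other, and the spread between separate cultures of 1 kind is unknown. "Higher" and "lower" as calls mean at least 2-fold apart with an interval that excludes equality. Smaller differences whose interval excludes equality are described as past counting error.

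The promoter of SCD is shown because SCD was the only member called higher between gels. The stretch from 250 to 110 bases before the RefSeq start is chr10:100346983-100347123 on the plus strand of GRCh38.p14, and capitals mark CCAAT boxes, the letters bound by factors such as NF-Y.

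SCD promoter: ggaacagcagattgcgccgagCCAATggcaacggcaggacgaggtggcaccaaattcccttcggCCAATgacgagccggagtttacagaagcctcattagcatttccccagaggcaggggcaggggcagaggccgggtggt

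The boxes begin at -229 and -186 relative to the start. Promoters of 250 bases before to 50 after the start were matched in RefSeq for 32 of the 35 members, 47 promoters in all. CCAAT on either strand was in 16 of the 47, against 34.6% of all 35116 promoters. GGGCGG, the GC box, was in 34 of the 47, against 44.95% of all. The sterol response element searched as TCACNCCAC was in 1 promoter, that of ACSL1, against 1.13% of all. ACGTG, the core of the hypoxia response element, was in 10 of the 47, against 21.4%. A further motif searched, DR1, was in 0 of the 47, against 0.023% of all. These are matches of letters, some of them overlapping, and show nothing about binding. The sterol response element was searched in 1 form only, so a promoter without a match is not shown to lack it. The 3 members with no matched promoter were not searched for any motif.

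Levels between genes were compared per kb of the gene's longest protein-coding transcript. SCD and FADS2 led in every library. In the PF EPCaT they stood at 190.8 and 211 CPM per kb, and in PF+3%PEGDA at 395 and 358. ACADVL came next in PF with 110 CPM per kb, ahead of FASN with 66.8. In PF+3%PEGDA that order was turned, with 42.9 for ACADVL and 88.8 for FASN. At the low end were ELOVL2, at 0.315 to 1.15 CPM per kb, and ELOVL6, at 0.780 to 1.30. Only 4 members had fewer than 100 counts in any library, so precision was limited for few of them, and the lowest count was 18, for ACSL5 in 2D.

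**Figure D1:**
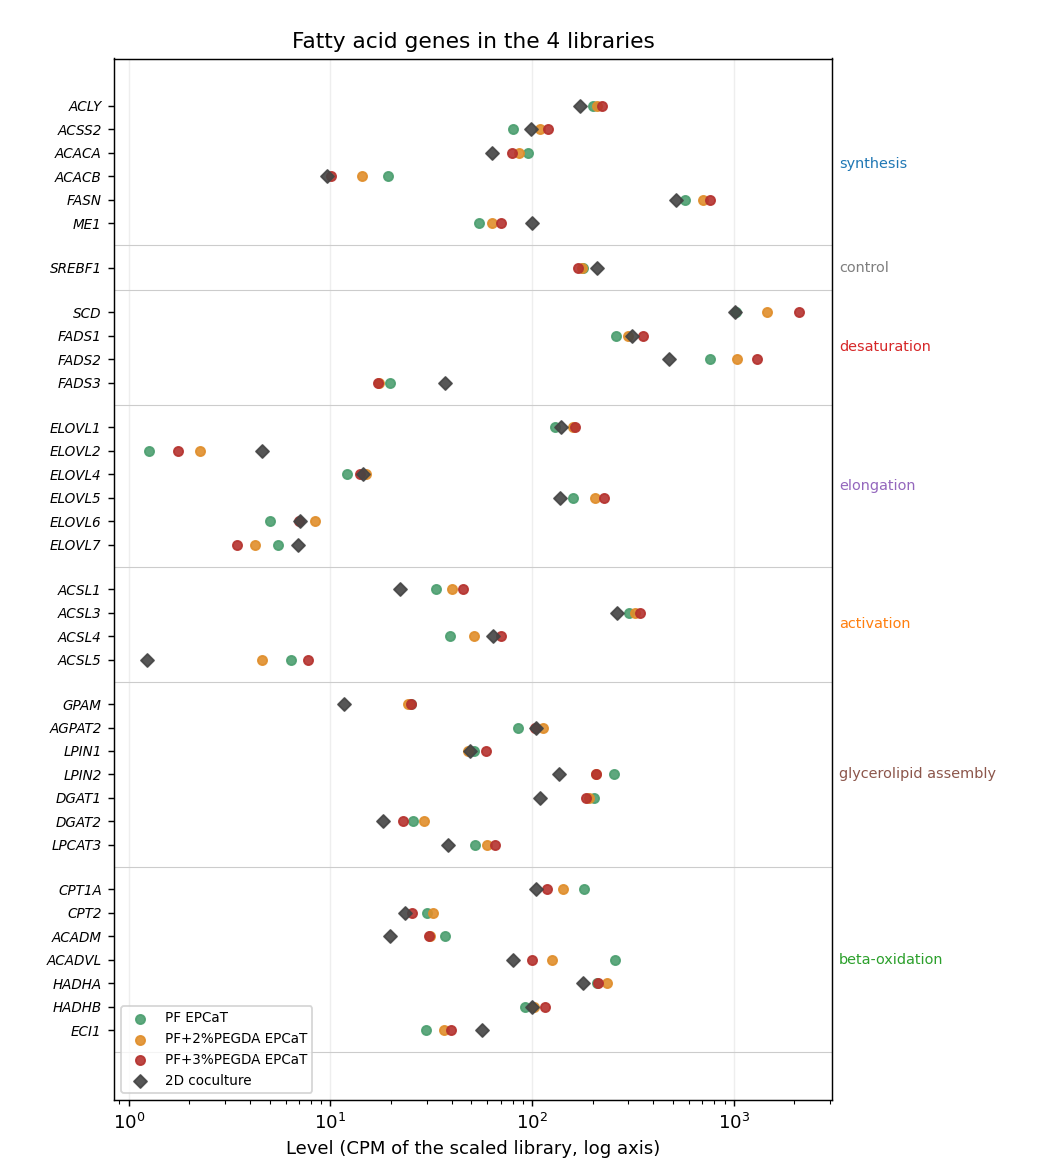
Levels of the 35 genes in the 4 libraries, in CPM of the scaled library on a log axis, grouped by role; each symbol is 1 library. SCD runs from 1013 in 2D to 2116 in PF+3%PEGDA, and ACADVL from 257 in PF down to 80.2 in 2D.

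Libraries held 13760301 to 15687894 counts. Summed over 20 fibroblast markers, levels were 4115 CPM in PF, 5307 at 2% PEGDA, 4835 at 3% PEGDA and 14516 in 2D. Of the 20, 14 were called lower in all 3 EPCaTs against 2D, beside 6.2% of all genes. Some markers went the other way. S100A4 was 63.8, 98.4 and 98.3 CPM against 39.9 in 2D and was called higher in both PEGDA gels. COL5A2 was called higher in PF, with 512 CPM against 231 in 2D, and was below 2D in the PEGDA gels. PDGFRA was 19.7, 20.4 and 24.8 CPM against 17.5, and was not called. CTNNA1, which PC-3 cells lack through deletion, stood at 5.39, 6.18 and 8.26 CPM in the EPCaTs and at 33.3 in 2D. The sum of 13 epithelial markers was 5845, 6631 and 6206 in the EPCaTs and 4208 in 2D. In bulk RNA, fewer cells of a type and less RNA per cell cannot be told apart. Every comparison with 2D below therefore goes with a lower signal of most fibroblast markers, whose part in it was not tested. Between gels the fibroblast sum had no order with PEGDA, but 3 of the 20 markers were called in order, beside 3.17% of all genes. VIM was higher (623, 1134 and 1390 CPM), and COL1A2 (121, 105 and 49.4) and COL5A2 (512, 200.1 and 177) were lower. From PF to PF+3%PEGDA, CTNNA1 was at log2 0.61 (0.20 to 1.03). The part of these markers in the differences between gels was not tested. Of 7 adipocyte markers, 4 were measured and summed to 12.4 to 24.1 CPM. PLIN1, which coats lipid droplets, was 4.24 to 5.45 CPM in the EPCaTs and 0.616 in 2D. CFD was 8.81, 13.7 and 12.4 CPM against 6.64, and LIPE was below 2D in every gel, with 3.96, 4.95 and 4.24 against 5.13. CIDEC did not pass the filter, and ADIPOQ, LEP and PCK1 were not among the genes counted.

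Against 2D, few members passed the call in any EPCaT. In PF 4 of 35 were called, against 28.5% of all genes tested: 3 higher, against 16.2%, and 1 lower, against 12.3%. In PF+2%PEGDA 5 were called, against 21.9%: 3 higher, against 12.3%, and 2 lower, against 9.65%. In PF+3%PEGDA 8 were called, against 22.5%: 5 higher, against 11.8%, and 3 lower, against 10.7%. Scaling by total counts called 8 in PF, against 29.6% of all genes, and 3 in PF+2%PEGDA, against 22%. These shares of members are near or under the background. In all 3 EPCaTs, ACSL5 and GPAM were higher and ELOVL2 was lower, 3 of 35 against 13.9% of all genes (7.74% higher and 6.2% lower). The 3 comparisons share the 2D library, so they are not independent of each other. Median log2 ratios over the 35 members were 0.20 in PF, 0.39 in PF+2%PEGDA and 0.26 in PF+3%PEGDA, beside medians of 0.0066, -0.0032 and -0.012 over all genes tested. Of 35 members, 21 had a ratio above 0 in PF, against 50.4% of all genes, and 26 in each PEGDA gel, against 49.8% at 2% and 49.2% at 3% PEGDA. Under 2-fold but past counting error, 16, 20 and 19 members lay above 2D, against 22.5%, 22.6% and 23.2% of all genes. Below 2D lay 11, 6 and 3, against 25.8%, 26.8% and 25.9%. Members have a median level of 81.1 CPM against 26.2 for all tested, so their intervals are narrower and these shares are not on an equal footing.

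**Figure D2:**
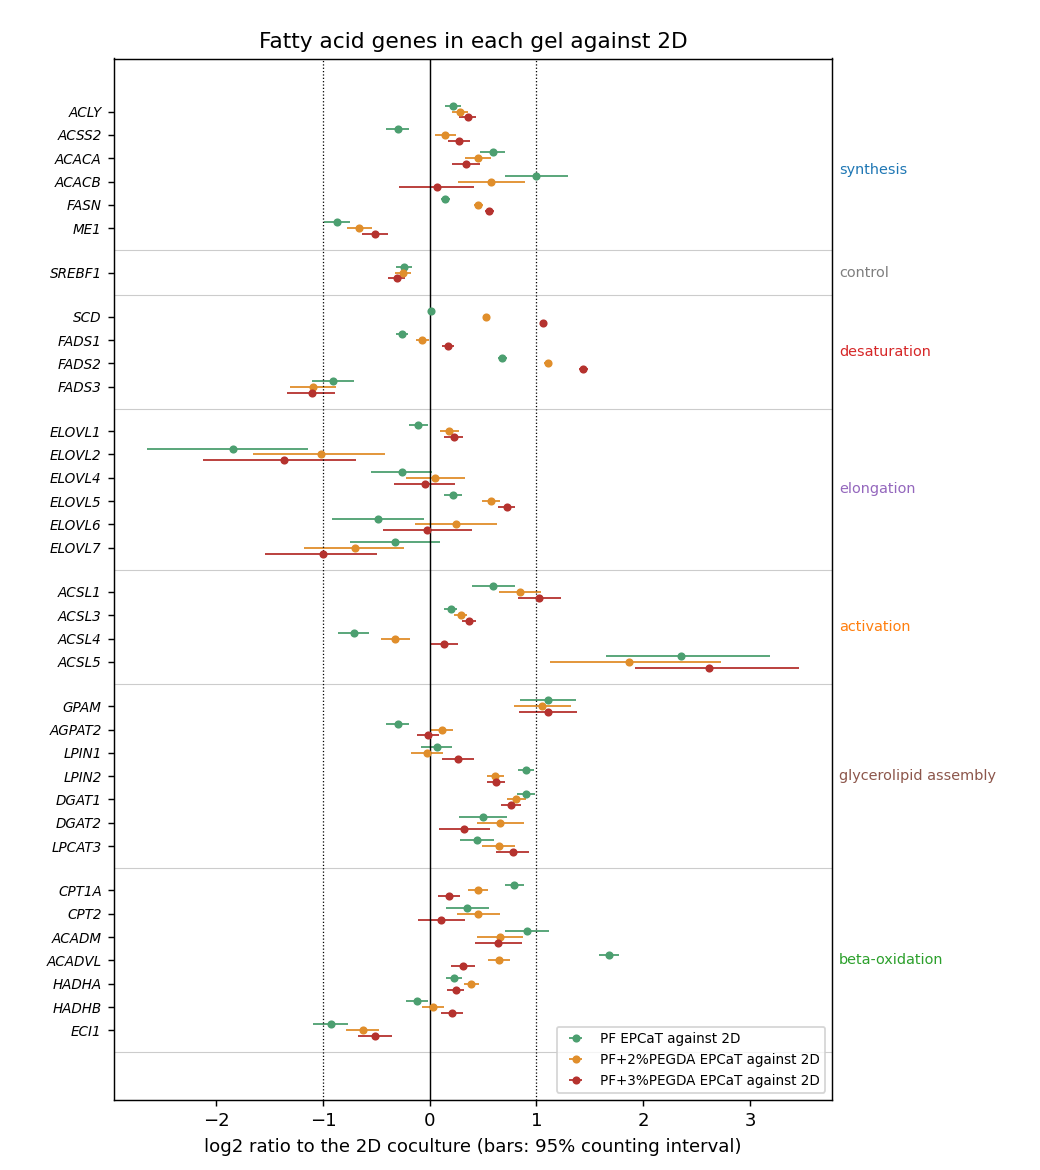
Log2 ratio of each gene in each EPCaT to the 2D coculture; bars are 95% counting intervals and dotted lines mark 2-fold. ACSL5 and GPAM lie right of the upper line and ELOVL2 left of the lower line in all 3 EPCaTs, while most genes lie between the lines.

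Synthesis genes differed from 2D by less than 2-fold, in both directions. FASN, fatty acid synthase, stood at 572 CPM in PF, 707 at 2% PEGDA, 761 at 3% PEGDA and 516 in 2D. All EPCaTs were above 2D past counting error, by 1.11- to 1.47-fold. ACLY was 201, 211, 221 and 173 CPM in the same order of libraries. ACACA, the main cytosolic acetyl-CoA carboxylase, went the other way across gels, with 94.9, 86.4 and 79.9 CPM and 63.1 in 2D. ME1, a source of NADPH, was below 2D in every gel, with 54.5, 63.1 and 69.9 CPM against 99.8. ACSS2, which uses acetate, was under 2D in PF and over it in both PEGDA gels, with 80.6, 110 and 120 CPM against 99.1. None of the 6 was called against 2D. ACACB, whose product at the mitochondrial surface restrains CPT1, came closest: 19.2 CPM in PF against 9.65 in 2D, a log2 ratio of 0.99 (0.70 to 1.29). SREBF1, the transcription factor gene whose product drives many of these genes, was 178, 176 and 170 CPM in the EPCaTs and 210 in 2D, below 2D past counting error in each.

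Desaturases differed in direction. SCD, which makes oleate from stearate, was 1023 CPM in PF, 1458 at 2% PEGDA, 2116 at 3% PEGDA and 1013 in 2D. The PF tissue was thus at the flat culture's level, with a log2 ratio of 0.01 (-0.02 to 0.05), and the PF+3%PEGDA tissue was 2.09-fold above it. FADS2, the delta-6 desaturase, was 766.5, 1033 and 1300 CPM against 479 in 2D. It was called higher in both PEGDA gels, by 2.16- and 2.71-fold, and in PF its log2 ratio was 0.68 (0.64 to 0.72). FADS1, the delta-5 desaturase, was 262, 299 and 353 CPM against 314, so it crossed the 2D level between gels. FADS3 was lower in every gel, with 19.8, 17.4 and 17.2 CPM against 37.0, and was called in both PEGDA gels. Its call was lost in both when a trend with gene length and GC content was removed (log2 -0.91 in PF+2%PEGDA and -0.85 in PF+3%PEGDA), and in PF+2%PEGDA under scaling by total counts (-0.97). FADS1 and FADS2 overlap on opposite strands of chromosome 11, and the library kit does not mark strand. FADS2 also overlaps FEN1 on the same strand. Of the 50-base stretches of FADS1 and FADS2, 2.32% and 2.82% occur in other genes. The part of overlapping reads in these values was not tested.

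Elongases varied in level and direction. ELOVL5, which lengthens polyunsaturated chains, was 160, 205 and 227 CPM in the EPCaTs against 137 in 2D. ELOVL1, which makes very long saturated chains, was 130, 159 and 163 against 140. ELOVL6, the elongase of palmitate, was 5.03, 8.37 and 6.95 against 7.05, and ELOVL4 was 12.1 to 15.1 in all 4 libraries. For ELOVL2, an elongase of long polyunsaturated chains, counts were 21, 35 and 24 in the EPCaTs against 67 in 2D. The log2 ratios were -1.84 (-2.65 to -1.14), -1.02 (-1.66 to -0.42) and -1.37 (-2.12 to -0.69). In PF+2%PEGDA this call was lost under total counts (-0.90) and with a prior count of 2 (-0.98). ELOVL7 was 5.51, 4.25 and 3.44 CPM against 6.92, and its call in PF+3%PEGDA, at -1.001, was lost, besides the 4-fold rule, under DESeq2 size factors, total counts and a prior count of 2.

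Of the acyl-CoA synthetases, ACSL5, found on mitochondria and endoplasmic reticulum, differed most from 2D. Its counts were 107, 71 and 106 in the EPCaTs against 18 in 2D, or 6.41, 4.57 and 7.75 CPM against 1.23. The log2 ratios were 2.35 (1.65 to 3.19), 1.86 (1.13 to 2.72) and 2.62 (1.92 to 3.46), so it was 3.64- to 6.14-fold higher. ACSL5 overlaps ZDHHC6 on the opposite strand, and 6.72% of its 50-base stretches occur in other genes. The part of such reads in its low counts was not tested. ACSL1 was 33.6, 39.9 and 45.2 CPM against 22.2 and was called in PF+3%PEGDA at 1.03 (0.83 to 1.23), which fell to 0.96 with the trend of length and GC removed. ACSL3, a synthetase of lipid droplets, was 303, 324 and 341 against 264. ACSL4, which prefers arachidonate, was 39.2, 51.4 and 70.4 against 64.3. It was below 2D in PF and PF+2%PEGDA and slightly above it in PF+3%PEGDA.

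Glycerolipid genes were mostly above 2D in the EPCaTs, in 6 of 7 by sign in each gel. GPAM, which adds the first acyl chain to glycerol 3-phosphate in mitochondria, was 25.2, 24.3 and 25.2 CPM against 11.7. It was called in all 3, at 2.07- to 2.15-fold, and lost the call in each with the trend of length and GC removed (log2 0.89 to 0.95). DGAT1, which makes triglyceride, was 203, 191 and 185 CPM against 109, and DGAT2, the other enzyme of that step, was 25.8, 28.96 and 22.9 against 18.3. LPIN2, a phosphatidate phosphatase, was 254, 208 and 208 against 136, while its relative LPIN1 was 51.5, 48.3 and 59.1 against 49.2. AGPAT2 was 84.8, 113 and 103 against 104. LPCAT3, which puts polyunsaturated chains into phospholipid, was 52.0, 59.8 and 65.6 against 38.3, but 53.0% of its 50-base stretches occur in other genes, chiefly EMG1, so its level is uncertain. For DGAT2 this share was 15.68% and for DGAT1 it was 9.69%.

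Beta-oxidation genes were above 2D in 5 of 7 in PF and 6 of 7 in each PEGDA gel. CPT1A was 180 CPM in PF, 142 at 2% PEGDA, 118 at 3% PEGDA and 104 in 2D. ACADVL, which opens the cycle for long chains, was 257, 126 and 99.6 CPM against 80.2, and was called in PF alone, at 1.68 (1.58 to 1.77). ACADM, its partner for medium chains, was 37.2, 31.2 and 30.9 against 19.8. CPT2, which completes the import step, was 30.0, 32.2 and 25.3 against 23.5. HADHA and HADHB, the subunits of the trifunctional protein, were 209, 234 and 211 against 179 and 92.4, 102 and 116 against 100. ECI1, an isomerase for unsaturated chains, was below 2D in every gel, with 29.8, 36.6 and 39.8 against 56.6. CPT2 shares 27.0% of its 50-base stretches with other genes and HADHA 7.33%.

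Between gels, calls were few and the order of levels was regular for many genes. PF+2%PEGDA against PF called 1 of 35, ACADVL, against 8.45% of all genes (2.98% higher and 5.48% lower). PF+3%PEGDA against PF called 2, SCD higher and ACADVL lower, against 11.1% (3.59% higher and 7.51% lower). Both were also in order, that is called over the whole range with both steps past counting error in 1 direction, against 3.17% of all genes (0.902% higher and 2.27% lower). PF+3%PEGDA against PF+2%PEGDA called 0, against 4.27% (1.84% higher and 2.42% lower). With no size rule, 14 members passed counting error at both steps in 1 direction, against 14.5% of all genes. Of these, 11 were higher with each addition of PEGDA, against 7.81% of all genes, and 3 were lower, against 6.72%. Members are abundant genes, with a median level of 81.1 CPM against 26.2 for all tested, which makes their intervals narrower, so the 2 shares are not on an equal footing. The higher group held ACSS2, FASN and ME1 of synthesis, SCD, FADS1 and FADS2 of desaturation, ELOVL5 of elongation, ACSL1, ACSL3 and ACSL4 of activation, and HADHB of oxidation. The lower group held ACACB, CPT1A and ACADVL. Scaling by total counts gave 7 higher and 6 lower, against 5.46% and 9.53% of all genes. ACSS2, FASN, SCD, FADS1, FADS2, ELOVL5 and ACSL4 were in the higher group, and CPT1A and ACADVL in the lower, under all 8 settings run, the main one included. The prior count does not enter the intervals, a filter can only drop a gene, and unrounded values kept the intervals of rounded counts. So only the other scalings and the removal of the trend could do much to alter these groups. The 2 steps share the PF+2%PEGDA library.

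**Figure D3:**
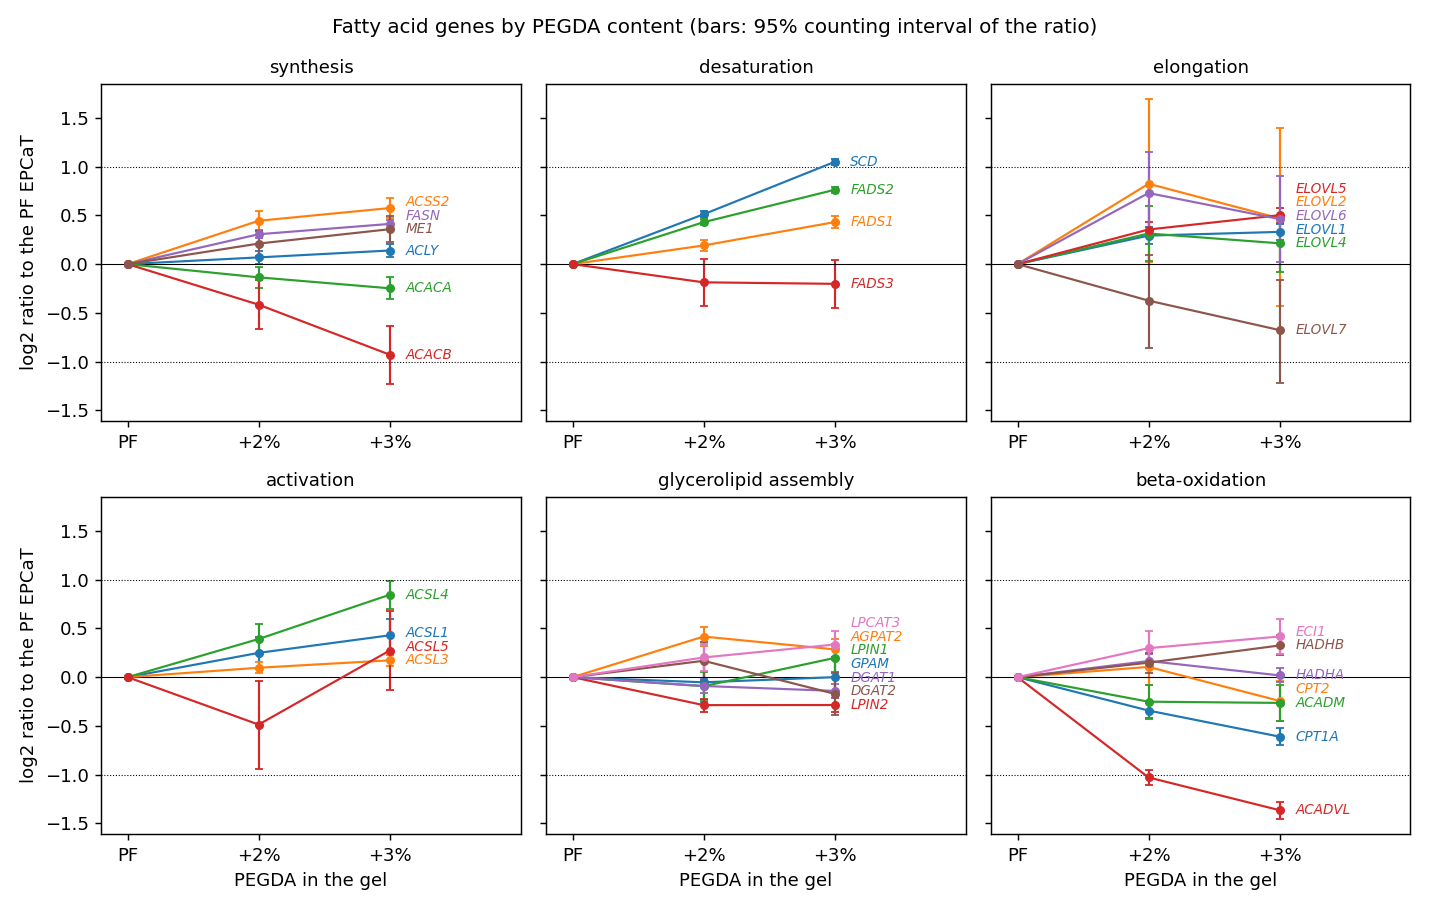
Log2 ratio to the PF EPCaT by PEGDA content, with a panel per role; bars are 95% counting intervals of the ratio and dotted lines mark 2-fold. SCD crosses the upper line at 3%, ACADVL crosses the lower line at 2% and lies further down at 3%, and glycerolipid genes lie between -0.29 and 0.42.

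SCD was 2.07-fold higher in PF+3%PEGDA than in PF, a log2 ratio of 1.05 (1.02 to 1.08), with similar steps of 0.51 and 0.54. Under scaling by total counts, which moved the median of all genes by -0.098, the ratio was 0.95 and the call was lost. SCD lies at chr10:100347124-100364834 on the plus strand (GRCh38, GENCODE 29), and 4.42% of its 50-base stretches occur in other genes, among them the pseudogene SCDP1. FADS2 was 1.70-fold above PF, a log2 ratio of 0.76 (0.73 to 0.79), from chr11:61792980-61867354 on the plus strand. FADS1 was at 0.43 (0.37 to 0.49). FADS3 differed from its relatives, at -0.20 (-0.45 to 0.04). ACSL4 lay between SCD and FADS2, at 0.84 (0.70 to 0.99), or 1.80-fold.

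ACADVL was 2.57-fold lower in PF+3%PEGDA than in PF, a log2 ratio of -1.36 (-1.45 to -1.28). Most of this lay in the step from PF to PF+2%PEGDA, at -1.03 (-1.11 to -0.95), and less in the next, at -0.34 (-0.44 to -0.24). ACADVL lies at chr17:7217125-7225273 on the plus strand and overlaps DLG4 on the other strand. Counts of DLG4 were 671, 474 and 406 in the EPCaTs against 325 in 2D, beside 4280, 1954, 1362 and 1172 for ACADVL. In CPM, DLG4 was 40.2, 30.5 and 29.7 against 22.3, the same order of libraries as ACADVL. The part of overlapping reads in the ACADVL values was not tested. No 50-base stretch of ACADVL occurs in another gene. CPT1A was at -0.61 (-0.70 to -0.52) over the whole range, and ACACB at -0.93 (-1.23 to -0.64).

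From PF to PF+3%PEGDA the medians of synthesis and beta-oxidation lay on opposite sides of 0. The median log2 ratio was 0.25 over the 6 synthesis genes and -0.24 over the 7 oxidation genes, a gap of 0.49. The lists overlap widely, from -0.93 (ACACB) to 0.57 (ACSS2) in synthesis and from -1.36 (ACADVL) to 0.42 (ECI1) in oxidation. With means in place of medians the gap was 0.30. For PF+2%PEGDA against PF it was 0.035, and for PF+3%PEGDA against PF+2%PEGDA 0.24. Against 2D the gap was -0.17 in PF, -0.083 in PF+2%PEGDA and 0.10 in PF+3%PEGDA. With desaturases and elongases joined to synthesis and 20 further tested genes to oxidation, it was -0.65, -0.24 and -0.21, so the sign in PF+3%PEGDA depended on the lists. Genes are not replicates, and no test was made of these gaps.

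Levels were also summed by role. Synthesis genes summed to 1022 CPM in PF, 1191 in PF+2%PEGDA and 1262 in PF+3%PEGDA, where FASN alone went from 572 to 761. ACACA and ACACB of this list were lower in PF+3%PEGDA than in PF. Desaturases summed to 2072, 2808 and 3786. Oxidation genes summed to 835, 705 and 641, where ACADVL alone went from 257 to 99.6. The 21 other oxidation genes did not share this order, with sums of 1003, 1071 and 1046 and a median log2 ratio of -0.05 from PF to PF+3%PEGDA. In 2D the sums were 961, 1843 and 563. Medians for the other roles in PF+3%PEGDA against PF were 0.60 for desaturation, 0.40 for elongation and 0.35 for activation. The median over the 7 glycerolipid genes was about 0, as was the median over all genes tested.

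**Figure D4:**
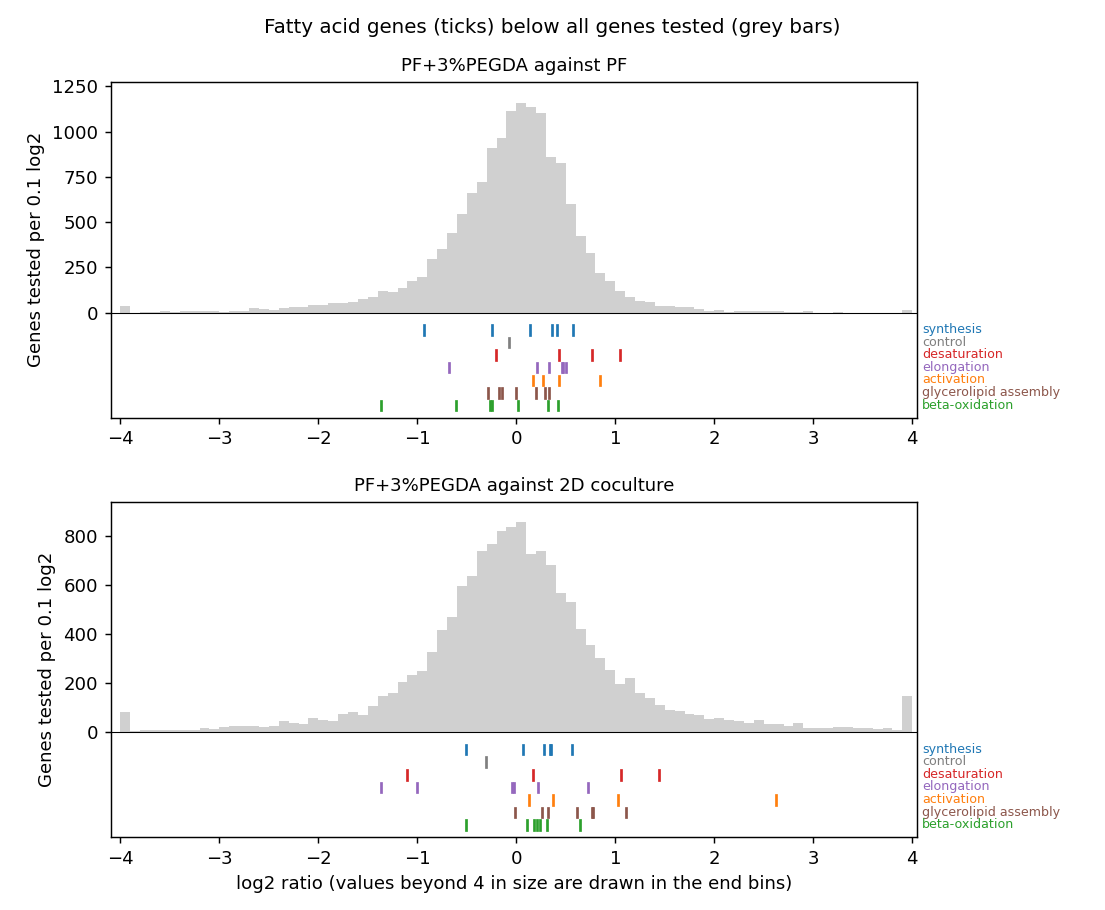
Distribution of log2 ratios over all 14856 genes tested (grey bars, genes per 0.1 log2) for PF+3%PEGDA against PF and against 2D, with the 35 members as ticks by role. In the upper panel SCD (1.05) lies at the right edge of the members and ACADVL (-1.36) at the left.

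Other genes of the pathway were taken from lists by function. Of 20 other oxidation genes tested, 3 were higher in all 3 EPCaTs against 2D and 0 were lower, against 7.74% and 6.2% of all genes. ACADSB, which oxidises branched short chains, was 66.7, 51.4 and 59.2 CPM against 13.0. HADH, the short chain hydroxyacyl-CoA dehydrogenase, was 23.7, 25.8 and 23.8 against 9.65. ACAA1, the peroxisomal thiolase, was 140, 126 and 120 against 47.0, with 20.1% of its 50-base stretches shared. From PF to PF+3%PEGDA, 1 of the 20 was lower, against 7.51% of all genes, and 0 were higher, against 3.59%. The lower one was CPT1B, the muscle form of CPT1, at 17.1, 3.15 and 3.88 CPM. It shares 94.1% of its 50-base stretches with the read-through gene CHKB-CPT1B, so its level is uncertain.

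Among 17 other genes of synthesis and the elongation cycle, 1 was higher and 1 lower in all 3 EPCaTs, beside 7.74% and 6.2% of all genes. ACSS1, which activates acetate in mitochondria, was higher, at 27.3, 19.4 and 18.5 CPM against 4.79. HACD1, a dehydratase of elongation, was lower, at 1.38, 2.06 and 2.05 against 5.68. OLAH, which releases chains from FASN, was higher in PF+3%PEGDA than in PF, but at only 1.17 against 0.300 CPM. Of 10 other glycerolipid genes, 1 was higher in all 3 EPCaTs, beside the same 7.74% of all genes. This was LPCAT1, which remodels phosphatidylcholine, at 595, 445 and 525 against 119. LPIN3 was lower in PF+3%PEGDA than in PF, at 17.0 against 69.0 CPM, with 19.4 in PF+2%PEGDA and 13.3 in 2D. It overlaps EMILIN3 on the opposite strand, and 13.2% of its 50-base stretches occur in other genes.

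Of 16 other control genes, 2 were higher in all 3 EPCaTs against 2D, beside 7.74% of all genes. INSIG2, which holds SREBP precursors in the endoplasmic reticulum, was 106, 131 and 151 CPM against 40.5. MLXIPL, which encodes the carbohydrate-sensing factor ChREBP, was 4.44, 3.02 and 4.68 against 1.37. INSIG1, itself a known SREBP target, was higher in PF+3%PEGDA than in PF and in order with PEGDA, at 93.4, 170 and 235 CPM, with 72.6 in 2D. Of 13 genes of uptake and binding, 4 were higher in all 3, beside the same 7.74% of all genes: SLC27A2, SLC27A3, FABP4 and FABP5. FABP4, a fatty acid carrier known from adipocytes and endothelium, was 56.0, 92.7 and 116 CPM against 1.44. FABP5, its epidermal relative, was 152, 292 and 274 against 30.1, with 31.3% of its 50-base stretches shared with pseudogenes. VLDLR, a lipoprotein receptor, was in order with PEGDA, at 6.35, 10.9 and 15.8 CPM with 5.68 in 2D, and so was FABP4. Among 9 endothelial and blood markers, 7 were measured and summed to 260, 307 and 359 CPM in the EPCaTs and 39.9 in 2D. CDH5 and PTPRC were not among the genes counted. Of the 5 that passed the filter, 4 were called higher in all 3 EPCaTs against 2D, beside 7.74% of all genes: PECAM1, KDR, ESAM and LYZ. LYZ had only 4 counts in 2D. CD14 passed the filter but was not called, at 1.56, 1.09 and 0.731 CPM against 1.23. PECAM1 was 65.4, 82.2 and 86.2 CPM against 7.19, and KDR was 154, 184 and 226 against 22.1. VWF, a marker of endothelium, and TEK did not pass the filter, with VWF at most 0.180 CPM. The part of these markers in the FABP4 values was not tested.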

How the data were processed

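RNA was sequenced from 4 libraries, 1 per group, made with a TruSeq RNA v2 kit per the labels' protocols. The authors deposited expected counts, estimated reads per gene that are not scaled between libraries; 18.2% to 19.9% of values were not whole (tolerance 0.01) and all were rounded. Reads were aligned to hg38 and FastQC, STAR and Partek were used, per the submitters' processing notes; versions, annotation and counting method are not given in the sources used here. Libraries were scaled by TMM in edgeR 4.0.16 (R 4.3.3). A gene was tested if any library reached 1 CPM. Log2 ratios had a prior count of 0.5 and exact Clopper-Pearson 95% intervals, computed in Python 3.11.15 with scipy 1.17.1. No p-value was possible. Calls were tested on simulated data. Positions, lengths and shared 50-base stretches came from GENCODE 29, and promoters from RefSeq (GRCh38.p14). Values were named for members called in any of the 6 pairs and fixed key enzymes, then for other genes called in all 3 EPCaTs against 2D or in PF+3%PEGDA against PF. Members, lists and rules were chosen with earlier results of these data known. The alternatives tried were size factors of DESeq2 1.42.0, scaling by total counts, 2 filters, a prior count of 2, 4-fold and 1.5-fold rules, unrounded values and removal of a length and GC trend, for which 95.3% of tested genes had values. The counts past both steps with no size rule were added after seeing the data.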

Additional observations from a re-analysis of the deposited data

How the results depend on the processing

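No paired analysis was possible because each group has 1 library. No called gene changed direction. Scaling by total counts, which moved the median of all genes by 0.20 in PF and 0.12 in PF+2%PEGDA against 2D, called 8 members in PF (4 with TMM; 29.6% of all genes) and 3 in PF+2%PEGDA (5 with TMM; 22% of all genes), and gave 7 higher and 6 lower at both PEGDA steps (5.46% and 9.53% of all genes). With a length and GC trend removed, 3 members were called in PF+2%PEGDA and 5 in PF+3%PEGDA against 2D, beside 21.6% and 22.1% of all genes. A 4-fold rule, which called 0.626% to 9.55% of all genes in these comparisons, left 0 members in all 3 EPCaTs, 1 in PF, 0 in PF+2%PEGDA and 1 in PF+3%PEGDA against 2D, and 0 in PF+3%PEGDA against PF, in PF+2%PEGDA against PF and in order with PEGDA. A 1.5-fold rule gave 9, 16, 15 and 13 against 2D in the same order, 7 in PF+3%PEGDA against PF, 3 in PF+2%PEGDA against PF, 1 in PF+3%PEGDA against PF+2%PEGDA and 6 in order; the shares of all genes under that rule were 25.8%, 48.1%, 38.9% and 40.2% against 2D, then 26.1%, 20%, 8.46% and 8.61%. The gap between synthesis and oxidation medians in PF against 2D was -0.29 with the trend removed, -0.29 with means and -0.65 with wider lists; with wider lists it was -0.24 in PF+2%PEGDA and -0.21 in PF+3%PEGDA against 2D, where it was 0.10 with the lists as given. For PF+2%PEGDA against PF it was 0.21 with means and 0.18 with wider lists, for PF+3%PEGDA against PF 0.30 with means, and for PF+3%PEGDA against PF+2%PEGDA 0.088 with means and 0.097 with wider lists. The causes were not tested. ELOVL2 was left out by the 5 CPM filter. Depth limited ELOVL2, ELOVL6, ELOVL7 and ACSL5, the 4 members with fewer than 100 counts in a library.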

Other observations

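Some enzymes of 1 step, or of neighbouring steps, had unlike ratios between gels. These genes were chosen after their values were seen, and the differences between them were not tested. From PF to PF+3%PEGDA, the acetyl-CoA carboxylases ACACA and ACACB were both lower (log2 -0.25 and -0.93). FASN, which uses cytosolic malonyl-CoA, made mainly by ACACA, was higher (0.41). Among subunits of the trifunctional protein, HADHA was at 0.02 (-0.05 to 0.09) and HADHB at 0.32 (0.22 to 0.43). HADHA and HADHB overlap each other on opposite strands, and the part of overlapping reads in their values was not tested. Among sources of acetyl-CoA, ACSS2 was at 0.57 (0.47 to 0.68) and ACLY at 0.14 (0.07 to 0.21).

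ACSL5 was lower in PF+2%PEGDA than in either end gel, with 71 counts between 107 in PF and 106 in PF+3%PEGDA. SREBF1 was at -0.07 (-0.15 to 0.01) from PF to PF+3%PEGDA, while INSIG1 was called higher (1.33). SCD5, the other stearoyl-CoA desaturase, was 14.4, 22.6 and 28.3 CPM in the EPCaTs and 13.6 in 2D, an order of libraries like that of SCD.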
